A study of Mus musculus with 6 samples.

Results

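Annexins are proteins that bind phospholipid membranes when calcium is present. The genes described here are Anxa1, Anxa2, Anxa3, Anxa4, Anxa5, Anxa6, Anxa7, Anxa8 and Anxa11. They were found by their gene symbol in the scanner tables, which gave 9 of the 28877 genes named on the array, with 19 of its 45281 probes. Another 5 probes belonged to Anxa9, Anxa10 and Anxa13, which are described only beside them.

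The samples were RNA of isolated luminal uterine epithelium from mice at 3.5 days post coitum, 3 labelled Alk3 cKO (arrays D, E and F, here CKO) and 3 labelled Control (arrays A, B and C). Bmpr1a, the current symbol of Alk3, encodes a receptor kinase that signals for bone morphogenetic proteins (BMPs). The CKO females were Alk3flox/flox Pgrcre/+, in which loxP sites flank exon 2 of Alk3 and Cre is made from the progesterone receptor locus, which is active in uterine cells other than the epithelium too. The labels call the other animals control without giving their alleles, and all animals shared a mixed background of the strains 129S5/SvEvBrd and C57BL/6J. The labels state neither that arrays stand for separate animals nor that animals were not pooled, so a p-value measures the spread between these samples, which may be technical. All 6 arrays lay on one chip, with Control in positions A to C and CKO in positions D to F, so that position and genotype cannot be told apart.

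Each annexin has a conserved core of repeats that carries the calcium sites and an N-terminal tail of its own that binds partners such as S100 proteins. Through these, annexins link membranes to the actin cytoskeleton, take part in exocytosis and endocytosis, and help to close torn plasma membrane. In the uterus the luminal epithelium is the layer that the embryo meets first, and its apical membrane is remodelled at the time of implantation.

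On each array 16620 to 17536 probes had signal above background, meaning a detection p-value under 0.05, and a probe was read from a median of 39 to 42 beads. Precision is limited by having 3 arrays a group. CKO array E stood apart, since it correlated with the rest by 0.936 on average over 11940 genes, against 0.953 to 0.970 for the other arrays, so differences are also given without it where that matters. By its brighter probe, Bmpr1a itself averaged 8.60 ± 0.31 in CKO and 9.19 ± 0.20 in Control (log2 signal, SD, n = 3 each), which did not pass limma's test (adjusted p 0.976). By this probe every CKO array (8.25 to 8.86) lay below every Control array (8.97 to 9.35), as in 5.01% of all genes. Whether this probe lies in the deleted part is not known here. Pgr, whose locus carries Cre in the CKO, differed by -0.43 (SE 0.56) and did not pass either. Of the markers of the labelled tissue, the epithelial keratin Krt8 had a log2 signal of 13.0 to 13.4 in CKO and 13.2 to 13.5 in Control, while the only probe of the epithelial adhesion gene Epcam was above background on 0 arrays. The luminal markers Calb1 and Krt13 were also above background on 0 arrays, and the luminal markers Lpar3 and Wnt7a on all 6.

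In CKO and Control alike, most annexins gave bright signals, which are shown here as the percentile of each probe among all probes of its array. A bright probe can reflect good binding as well as much RNA, so the percentiles rank probes and do not order the transcripts. The probe of Anxa2, which forms a membrane complex with S100a10, lay between percentiles 98.8 and 99.2. The main probe of Anxa6, the annexin with a doubled core, lay between 97.6 and 99.2. The probe of Anxa5, the protein used to stain phosphatidylserine on dying cells, lay between 97.5 and 98.9. The brightest Anxa11 probe lay between 96.4 and 97.6. These ranges overlap except that the Anxa11 range lies below that of Anxa2, and each gene kept within 2 percentiles over the arrays.

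The main probes of Anxa4 (percentiles 91.9 to 96.5), Anxa3 (91.1 to 97.7) and Anxa1 (87.5 to 93.4) moved over wider ranges. Anxa8 had a main probe between 34.2 and 72.8, above background on 1 of 3 CKO arrays and 2 of 3 Control arrays, and its other probe was above background on 0 arrays. Anxa7 gave no bright probe. The probe made from its RefSeq transcript was above background on 0 arrays, and the main probe, made from a cDNA clone, was above background on 2 of 3 CKO and 2 of 3 Control arrays.

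Over the 19 probes, 10 were above background on all 6 arrays, 5 on some and 4 on none, and 14 were tested because at least 3 arrays measured them. Every one of the 9 genes had a tested probe. Of the annexin genes outside this set, Anxa9 had a probe above background on 5 arrays, and Anxa10 and Anxa13 had none above background on any array.

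**Figure D1:**
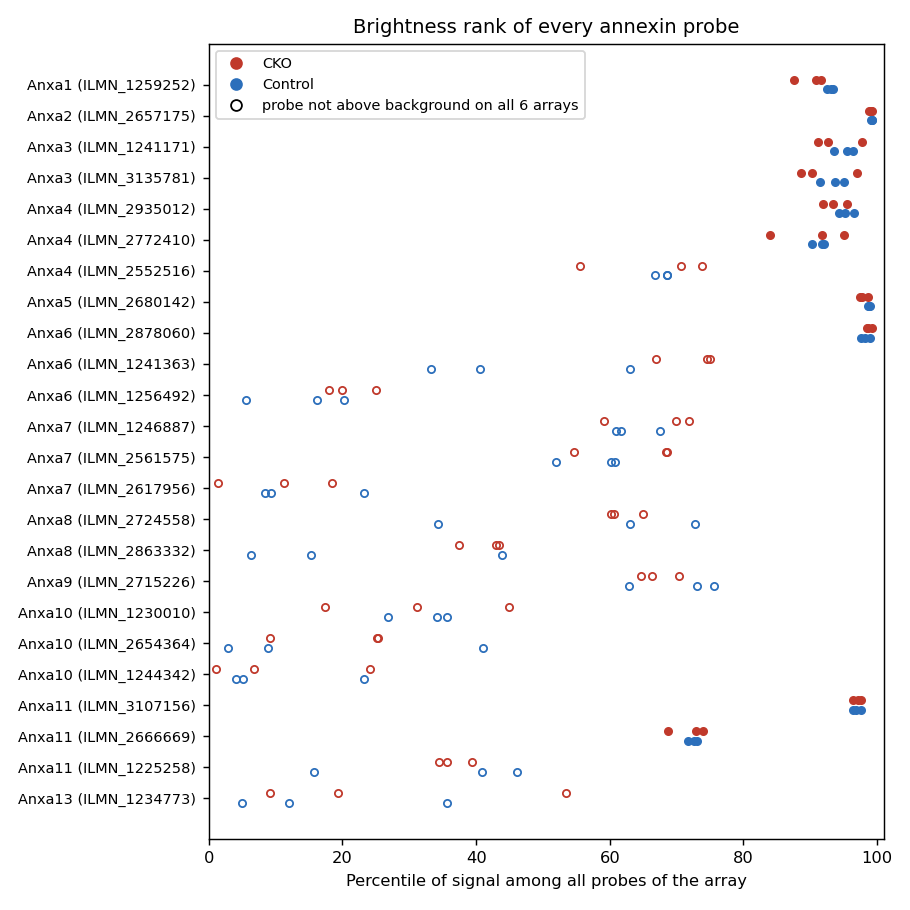
Percentile of the background-corrected signal of every annexin probe among all 45281 probes of its array (x axis), for CKO and Control arrays, with open points for probes not above background on all 6 arrays. The main probes of Anxa2, Anxa5, Anxa6 and Anxa11 lie above percentile 96 on every array, while the Anxa10 and Anxa13 probes are at background.

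The comparison of CKO with Control asked how loss of Alk3 changes annexin expression in this epithelium. By limma, 0 of the 9 annexins passed in either direction (adjusted p 0.976 to 0.977). Over all 11940 genes 0.0168% passed as higher and 0% as lower, and 4.72% had an unadjusted p under 0.05, which 2 of the 9 annexins had. The groups did not overlap for the same 2 annexins, Anxa1 and Anxa5, against 10.6% of all genes. Both lay lower in CKO, as 5.01% of all genes did without overlap. Of the 9 log2 differences 3 were positive and 6 negative, with a median of -0.19, where the median over all genes was -0.01. Without regard to sign the median difference was 0.38 for the annexins and 0.18 for all genes. The annexins also spread more over single arrays of both groups. On arrays A to E their median distance from the mean of the other arrays was 0.25 to 0.76 log2 units. For all genes it was 0.18 to 0.34. On F it was 0.18 for the annexins and 0.19 for all genes.

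Anxa1 encodes a protein known as a glucocorticoid-induced inhibitor of inflammation that signals through formyl peptide receptors. Its log2 signal was 9.46, 8.77 and 9.63 on CKO arrays D, E and F, against 9.99, 9.86 and 10.09 on Control arrays A, B and C. No CKO array reached a Control array, and E was the lowest. The difference was -0.69 (SE 0.26, 95% confidence interval -1.30 to -0.08), a CKO level of 0.619 times Control, and did not pass by limma (adjusted p 0.976). An exact two-sided permutation test gave p = 0.1, the smallest that 3 against 3 arrays allow. Without array E the difference was -0.43.

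Anxa5 had a log2 signal of 11.68, 11.55 and 12.29 on CKO arrays D, E and F, against 12.40, 12.35 and 12.57 on Control arrays A, B and C. The groups again stayed apart, although F came close to B, the lowest Control array. The difference was -0.60 (SE 0.23, 95% confidence interval -1.16 to -0.04, limma adjusted p 0.976, exact permutation p = 0.1), a CKO level of 0.66 times Control. The raw, unnormalised signals of Anxa5 were apart too, with 2980.9 to 4914.5 in CKO and 5698.9 to 6091.7 in Control. The median raw signal of the arrays was also lower in CKO, with 79.7 to 82.1 against 82.4 to 87.6 in Control. The raw separation is thus no independent support for a lower Anxa5. Without array E the difference was -0.46, and with arrays weighted by their quality it was -0.23.

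Anxa4, an annexin of secretory and absorptive epithelia, had a log2 signal of 10.07, 9.71 and 10.74 on CKO arrays D, E and F, against 10.33, 10.64 and 11.09 on Control arrays A, B and C. The groups overlapped, since CKO array F lay above Control arrays A and B. The difference was -0.51 (SE 0.32, limma adjusted p 0.976), and -0.28 without E. The other bright Anxa4 probe had 10.58, 8.09 and 9.68 on D, E and F, against 9.35, 9.67 and 9.76 on A, B and C. There array D was the highest of all 6, so the probes of Anxa4 disagree on D and share the low value on E. The difference of that probe was -0.14 (SE 0.59), and the dim Anxa4 probe differed by 0.13 (SE 0.37). With the mean of the probes the difference of Anxa4 was -0.17.

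Anxa2 had a log2 signal of 12.90, 12.49 and 12.77 on CKO arrays D, E and F, against 12.82, 12.90 and 12.93 on Control arrays A, B and C. It was the steadiest of the 9 genes, with an SD over all arrays of 0.16, lower than that of most genes (percentile 13.7). Only array E lay apart, below the others. The difference was -0.16, with a 95% confidence interval of -0.57 to 0.26 (limma adjusted p 0.977), or 0.673 to 1.19 times Control, and it was -0.04 without E.

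Anxa1, Anxa5 and Anxa4 had the most negative differences of the 9 genes, so their start regions are shown, as the place to look for letters that the BMP route is known to read. BMP and TGF-beta receptors act through SMAD proteins, which bind the short SMAD box CAGAC, read as GTCTG on the opposite strand, and, for the BMP branch, the element GGCGCC. The stretches below run 5′ to 3′ along the gene, from 250 bases before to 50 after a RefSeq start (build GRCm38.p6). SMAD boxes on either strand are in capitals.
Anxa1, chr19:20390622-20390921, minus strand: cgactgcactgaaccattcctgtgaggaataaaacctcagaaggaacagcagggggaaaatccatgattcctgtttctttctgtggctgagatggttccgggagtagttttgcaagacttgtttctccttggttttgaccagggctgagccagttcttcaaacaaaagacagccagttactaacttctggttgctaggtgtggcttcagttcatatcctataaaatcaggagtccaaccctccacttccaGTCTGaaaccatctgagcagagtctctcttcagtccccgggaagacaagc
Anxa4, chr6:86793535-86793834, minus strand: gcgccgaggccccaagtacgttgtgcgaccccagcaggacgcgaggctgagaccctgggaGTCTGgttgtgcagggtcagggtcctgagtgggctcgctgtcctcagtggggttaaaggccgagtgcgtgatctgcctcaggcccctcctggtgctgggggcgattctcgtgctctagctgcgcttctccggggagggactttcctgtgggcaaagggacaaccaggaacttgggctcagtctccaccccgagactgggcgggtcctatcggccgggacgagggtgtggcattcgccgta
Anxa5, chr3:36475838-36476137, minus strand: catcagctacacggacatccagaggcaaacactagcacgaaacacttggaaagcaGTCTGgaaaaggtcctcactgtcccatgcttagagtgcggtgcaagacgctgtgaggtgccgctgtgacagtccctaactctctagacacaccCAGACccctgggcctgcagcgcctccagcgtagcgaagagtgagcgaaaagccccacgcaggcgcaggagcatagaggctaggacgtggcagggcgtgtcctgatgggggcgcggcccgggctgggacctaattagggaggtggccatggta
These hold 1 SMAD box in Anxa1, 1 in Anxa4 and 2 in Anxa5, and 0 copies of GGCGCC. Among all 32851 RefSeq start regions of that length, 49.6% hold a SMAD box and 11.9% hold GGCGCC, so a box here is an ordinary occurrence. RefSeq start regions were at hand for 7 of the 9 genes, 9 regions in all. The remaining regions hold 1 box at the second Anxa4 start, 2 at Anxa8 and 0 at Anxa2, Anxa7 and Anxa11, and 0 of the 9 hold GGCGCC. The Anxa1 and Anxa2 regions hold a TATA box (TATAAA, on the gene's strand), which 8.32% of regions have. A match of letters does not show binding.

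**Figure D2:**
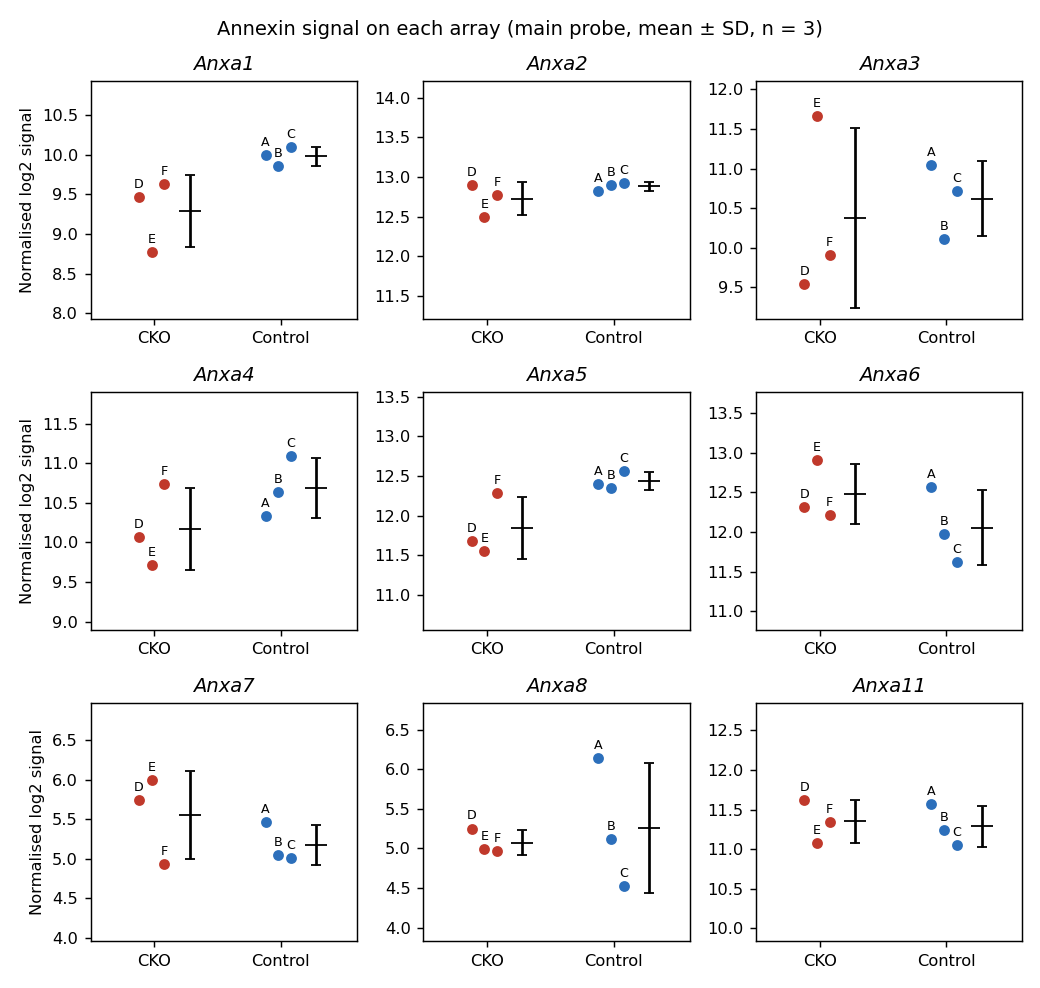
Normalised log2 signal (y axis, 3 log2 units in every panel) of the main probe of each annexin on each CKO and Control array, named by letter, with mean ± SD (n = 3). The CKO points of Anxa1 and Anxa5 all lie below the Control points, and Anxa3 is spread over 2.12 log2 units.

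Anxa3, an annexin found in neutrophil granules and in many epithelia, had the widest spread. Its log2 signal was 9.54, 11.67 and 9.91 on CKO arrays D, E and F, against 11.05, 10.11 and 10.71 on Control arrays A, B and C. CKO held both the highest array, E, and the pair of lowest arrays, D and F, so that the CKO SD was 1.14 (n = 3) and the Control SD 0.47 (n = 3). The difference was -0.25 (SE 0.57, limma adjusted p 0.977). It was -0.90 without E and 0.17 without D, so its direction rests on single arrays. The second Anxa3 probe gave the same picture, with 8.98, 11.29 and 9.34 on D, E and F, against 10.56, 9.63 and 10.16 on A, B and C. The SD of Anxa3 over the 6 arrays, 0.79, was at percentile 92.6 of all genes.

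The genes most like Anxa3 over the 6 arrays were Fuom (Pearson r 0.992), Asf1a (0.988), Wls (0.983), Prap1 (0.981) and Eif4ebp1 (0.975), given as a description without a test. Prap1, a secreted proline-rich acidic protein of epithelia, had log2 signals of 8.0, 12.66 and 8.63 on CKO arrays D, E and F, against 11.53, 9.97 and 11.06 on Control arrays A, B and C. It was thus high where Anxa3 was high and low where Anxa3 was low, which follows from its being picked by this correlation. Wls, a carrier that WNT proteins need for secretion, had 10.09, 11.12 and 10.11 on CKO arrays D, E and F, against 10.66, 10.27 and 10.53 on Control arrays A, B and C. With array E left out the 5 correlations were 0.956 to 0.983 over 5 arrays, which had also served to pick the genes. Of the 11940 genes 50 had r over 0.95.

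Anxa6, which binds membranes of the endocytic route and serves as a scaffold for signalling proteins, had a log2 signal of 12.31, 12.91 and 12.21 on CKO arrays D, E and F, against 12.57, 11.98 and 11.62 on Control arrays A, B and C. Control array A lay above CKO arrays D and F, so the groups overlapped. The difference was 0.42 (SE 0.31, 95% confidence interval -0.32 to 1.16, limma adjusted p 0.976), and 0.20 without E. A second Anxa6 probe, made from a cDNA clone, was above background on the 3 CKO arrays and on 0 of the 3 Control arrays. Its log2 signal was 5.42, 6.48 and 6.43 on D, E and F, against 5.12, 4.58 and 4.52 on A, B and C, values that do not overlap. The raw signals did overlap, since D had 98.2 and Control array A had 99. The CKO mean was 6.11 and the Control mean 4.74. Control lay below background, so the ratio is given as at least 2.02-fold higher in CKO. That bound allows for the background alone and not for the spread between arrays. The 95% confidence interval of the log2 difference was 0.56 to 2.175. The probe did not pass by limma over 17291 probes (adjusted p 0.985). Among those probes 0.0174% passed as higher, and 10.3% did not overlap between the groups. This probe entered the test only through its CKO arrays, so its test and its lack of overlap are a description and support nothing. The remaining Anxa6 probe was above background on 0 arrays.

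Among markers of other cells, the smooth muscle gene Acta2 had log2 signals of 8.86, 9.61 and 6.91 on CKO arrays D, E and F, against 10.98, 7.96 and 6.86 on Control arrays A, B and C. Arrays A and E were the highest for Acta2 and Anxa6, and array C the lowest for both. Des, the muscle intermediate filament gene, had another order, with 5.73, 6.04 and 5.11 on CKO arrays D, E and F, against 5.58, 5.79 and 5.49 on Control arrays A, B and C. Of the 6 smooth muscle markers only Acta2 and Des were measured, with a summed log2 level of 7.28 to 9.73 in CKO and 7.33 to 11.02 in Control, a sum made up mostly of Acta2, while Myh11, Cnn1 and Tagln were above background on 0 arrays. The 7 of 10 stroma markers measured summed to a log2 level of 9.94 to 12.7 in CKO and 11.1 to 11.5 in Control. This sum was made up mostly of Dcn, while Hand2 and Hoxa11 were above background on 0 arrays. Relative to their means over all arrays the 7 averaged 1.12, 0.65 and -1.04 on CKO arrays D, E and F. On Control arrays they averaged -0.395 to -0.055. The 5 of 6 endothelium markers measured summed to 8.10 to 10.1 in CKO and 8.43 to 8.52 in Control, with the highest value on E. The part of these cells in the annexin values was not tested. In such tissue samples fewer cells of a type and less RNA per cell cannot be told apart.

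Anxa7, a calcium-dependent membrane fusion protein, was close to background. Its main probe had a log2 signal of 5.74, 6.00 and 4.93 on CKO arrays D, E and F, against 5.47, 5.04 and 5.01 on Control arrays A, B and C. CKO array F was the lowest of all, so the groups overlapped. The difference was 0.38 (SE 0.31, limma adjusted p 0.976), 0.16 without E and 0.70 without F, and 0.02 with array weights. Another Anxa7 probe was above background on 2 of 3 CKO arrays and 0 of 3 Control arrays, too few to be tested. It had log2 signals of 5.56, 5.58 and 4.79 on CKO arrays D, E and F, against 5.0, 4.73 and 4.97 on Control arrays A, B and C, so that F lay below A and C and the groups overlapped.

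Anxa8, an annexin of stratified epithelia, had a log2 signal of 5.25, 4.99 and 4.97 on CKO arrays D, E and F, against 6.14, 5.11 and 4.53 on Control arrays A, B and C. Control held both the highest array, A, and the lowest, C. The difference was -0.19 (SE 0.40, limma adjusted p 0.977), and signal over background limits it. It was -0.56 without C and -0.03 with the deposited values. The mesothelium markers had a summed log2 level of 10.4 on CKO array D, against 7.89 and 8.08 on the other CKO arrays and 8.62 to 9.44 on Control arrays, and their part in the Anxa8 values was not tested.

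Anxa11, which joins RNA granules to lysosomes and binds S100a6, had a log2 signal of 11.63, 11.08 and 11.35 on CKO arrays D, E and F, against 11.57, 11.24 and 11.06 on Control arrays A, B and C. The groups lay on top of each other. The difference was 0.06, with a 95% confidence interval of -0.47 to 0.59 (limma adjusted p 0.977), or 0.724 to 1.51 times Control. A dimmer Anxa11 probe, above background on all arrays, differed by -0.06 (SE 0.23). The 2 probes did not follow each other over the 6 arrays (Pearson r -0.71). The dimmer probe was lowest on D (5.60), where the main probe was highest, and was itself highest on E (6.32).

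The annexins did not vary as one. Anxa1, Anxa2, Anxa4 and Anxa5 were each lowest on CKO array E and highest on Control array C. Anxa3, Anxa6 and Anxa7 were each highest on CKO array E, and Anxa6 was lowest on Control array C. On E, 7 of the 9 annexins were the extreme of the 6 arrays, and 53.5% of all genes were. On C, 7 of the 9 were extreme and 36.8% of all genes were. Relative to the mean of the other 5 arrays on the log2 scale, Anxa1 lay at -1.04 on E, Anxa4 at -0.86, Anxa5 at -0.71 and Anxa2 at -0.37. Anxa3 lay at 1.40, Anxa6 at 0.77 and Anxa7 at 0.76. On the same array the 9 measured pan-epithelial markers averaged -0.46 relative to their means over all arrays, against -0.02 and 0.26 on the other CKO arrays and 0.04 to 0.12 on Control arrays. Of these, Krt19, Esrp1, Elf3, Cdh1 and Krt8 had their lowest value on E, while Krt18, Cldn4 and Cldn7 lay above their means there. The 5 measured luminal epithelium markers averaged 0.82 on E, against 0.01 and -0.11 on the other CKO arrays and -0.32 to -0.11 on Control arrays. The part of epithelial content in the annexin values was not tested.

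**Figure D3:**
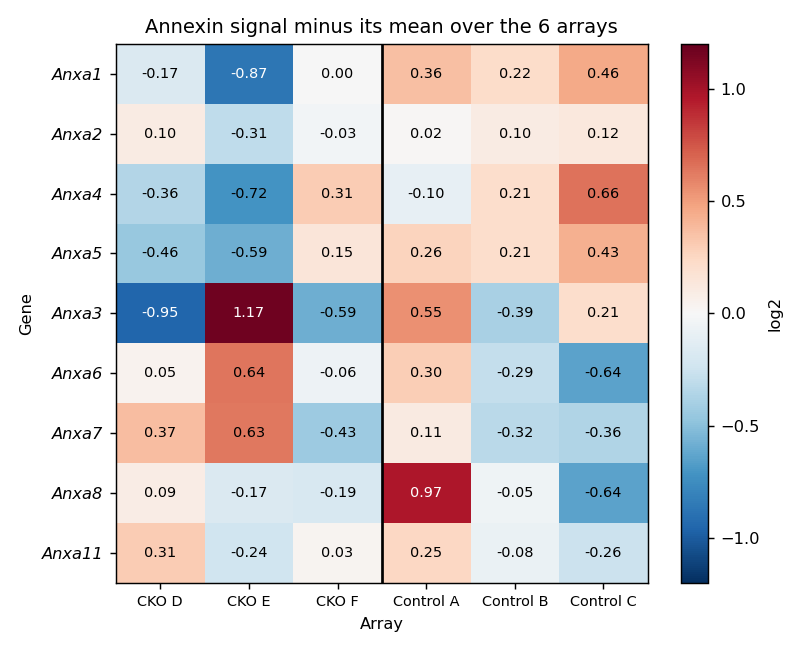
Normalised log2 signal of each annexin (rows, main probe) on each array (columns, CKO left of Control) minus its mean over the 6 arrays, in log2 units. Anxa1, Anxa2, Anxa4 and Anxa5 are lowest on CKO array E, where Anxa3, Anxa6 and Anxa7 are highest.

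Of 5 listed S100 genes, whose proteins bind annexins, 4 were measured, and all 4 differences were negative, with a median of -0.25 (median over all genes -0.01), and 0 passed by limma. S100a10, the light chain that pairs with Anxa2, had a log2 signal of 8.80, 8.15 and 8.42 on CKO arrays D, E and F, against 9.42, 9.03 and 9.34 on Control arrays A, B and C. Every CKO array lay below every Control array. The difference was -0.81 (SE 0.23, limma adjusted p 0.976), and -0.65 without E. Its partner Anxa2 differed by -0.16, with a confidence interval that includes 0. S100a6 had 9.74, 9.66 and 9.05 on D, E and F, against 9.83, 9.91 and 9.96 on A, B and C, and also did not overlap (difference -0.42, SE 0.22). S100a10 and S100a6 were named for having the smallest p of their list, and 10.6% of all genes did not overlap. S100a11, a partner of Anxa1, differed by -0.09 (SE 0.19), and S100a4 was above background on 0 arrays.

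The receptors and proteases that annexins meet at the cell surface were mostly at background. The formyl peptide receptor genes Fpr1, Fpr2 and Fpr3 were above background on 0 arrays. Of 9 listed genes only Plat, tissue plasminogen activator, was measured. It had a log2 signal of 12.49, 10.68 and 12.11 on CKO arrays D, E and F, against 12.77, 12.87 and 12.17 on Control arrays A, B and C. The groups overlapped and E was the lowest. The difference was -0.84 (SE 0.48, limma adjusted p 0.976), and -0.30 without E. With the mean of the probes it was -0.21, so the size of the Plat difference rests on its brightest probe.

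Of 16 genes of calcium-dependent membrane repair and its ESCRT partners, 13 were measured, 10 with a positive and 3 with a negative difference (median 0.12), and 0 passed. Capn2, the catalytic subunit of m-calpain, had a log2 signal of 6.56, 7.43 and 7.73 on CKO arrays D, E and F, against 7.76, 8.17 and 8.62 on Control arrays A, B and C. The groups did not overlap, with F just below A (difference -0.94, SE 0.36, limma adjusted p 0.976). Chmp4b, the ESCRT filament protein, differed by 0.37 (SE 0.18) with groups that did not overlap, and Pef1, a calcium-binding partner of Pdcd6, by 0.19 (SE 0.17). Pdcd6 itself, which binds Anxa7 and Anxa11, was above background on 0 arrays. Capn2 and Chmp4b were the only 2 of the 13 that did not overlap, against 10.6% of all genes. They were named for having the smallest p of their list.

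Of 8 listed membrane traffic genes 7 were measured, 6 of them positive (median 0.21), with Flot2 at 0.62 (SE 0.43), Flot1 at 0.39 (SE 0.28) and Rasa1 at 0.21 (SE 0.19). Single arrays moved these values, with Flot2 at 0.23 without C and 0.29 without E, Flot1 at 0.10 without C, and Rasa1 at 0.10 without A. Flot1 and Flot2 are scaffold proteins of membrane microdomains, and Rasa1 is a Ras GTPase-activating protein that Anxa6 binds. Of 7 cytosolic phospholipase A2 genes 3 were measured. Pla2g4b differed by -0.29 (SE 0.22), Pla2g6 by 0.09 (SE 0.25) and Pla2g4e by 0.06 (SE 0.15), and Pla2g4a, which annexin A1 is known to inhibit, was above background on 0 arrays. Anxa9 differed by -0.50 (SE 0.40). None of these passed by limma.

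**Figure D4:**
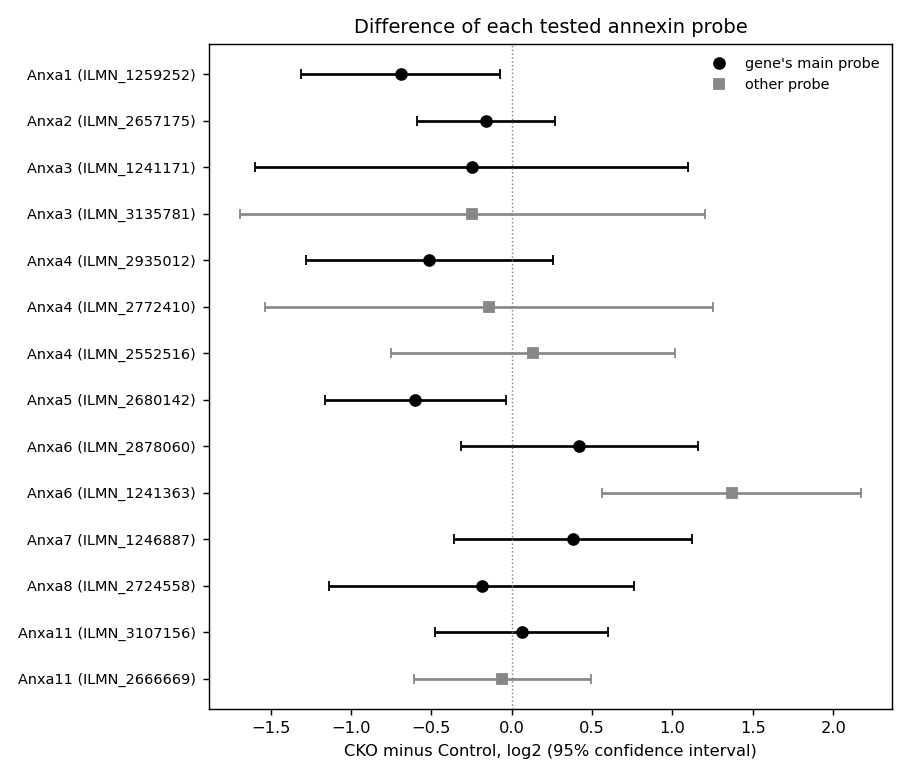
CKO minus Control difference on the log2 scale (x axis, with 95% confidence interval) of the 14 tested annexin probes, the main probe of each gene in black and its other probes in grey. The intervals of Anxa1 and Anxa5 exclude 0 before adjustment for the number of probes, and so does that of the second Anxa6 probe, which was tested only because its CKO arrays were above background.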

How the data were processed

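The deposited scanner tables, per the file headers, hold the mean intensity over beads of each of 45281 probes (linear, with its standard error), a detection p-value and a count of beads. By their values they were neither background-subtracted nor normalised. The authors also deposited processed intensity values, which set against the scanner signals were background-subtracted, quantile-normalised and linear. The software behind them was not stated in the labels or headers.

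The scanner intensities were processed with neqc of limma 3.58.1 in R 4.3.3. It corrects by normexp with inferred negative controls, adds 16, quantile-normalises and takes log2; the added constant shrinks differences of dim probes. Probes above background on at least 3 arrays were kept (17291). RefSeq (GRCm38.p6) named 29370 probes by accession and 6953 by symbol, 8940 kept the file's name and 18 had no usable one. A gene was represented by its brightest probe on average, here its main probe (11940 genes).

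CKO was set against Control by two-sided lmFit and eBayes tests at 0.05, with Benjamini-Hochberg adjustment across genes (across probes for single probes). Of these steps only the limma fit was tested on simulated data, made as normalised log2 values of genes. Background correction, filtering and the choice of probe were not. For a probe below background throughout a group, "at least" compares the brighter mean with a bound, in which each array of the dim group has its lowest above-background signal or, where larger, the probe's own.

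Members and lists were chosen with earlier results of these data known. The rule named all 9 annexins, Bmpr1a, Pgr, up to 3 genes per list by smallest p where none passed, and the 5 genes most correlated with the most variable annexin. Other genes named are listed markers or listed genes at background. The alternatives were 2 further background corrections, median scaling, cyclic loess, the deposited values, no filter, a strict filter (detection p-value under 0.01 on every array), the mean of probes, array weights, robust fitting with a variance trend, and each array left out in turn.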

Additional observations from a re-analysis of the deposited data

How the results depend on the processing

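Under all 16 alternatives 0 annexins were called in either direction, and their smallest adjusted p was 0.43 (Anxa1, array weights). Genes lower in CKO stayed at 0. Genes higher in CKO, 2 in the setting reported, were 1 with normexp without controls, no background correction, median scaling, cyclic loess or the deposited values, 0 with no filter or the strict filter, 5 with array weights, and 0 to 1 without single arrays. Probes higher, 3 in the setting reported, were 0 with the strict filter, 6 with array weights, and 0 to 2 without single arrays.

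Of the 9 annexins 7 kept their sign in each alternative that gave them a value. Anxa8 had too few arrays above background without A, B or D. Anxa11 ran from -0.075 to 0.20 and Anxa3 from -0.90 to 0.17 without single arrays. The second Anxa3 probe ran from -0.96 to 0.20, the dim Anxa4 probe from -0.19 to 0.55, the other bright Anxa4 probe from -0.70 to 0.54 and the dimmer Anxa11 probe from -0.20 to 0.16, and the last was 0.10 with array weights. Of the 16 other named genes 13 kept their sign. Pgr ran from -0.80 to 0.058, S100a11 from -0.18 to 0.040 and Pla2g6 from -0.11 to 0.30, and Pla2g6 was -0.078 with array weights.

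Array weights also moved Anxa1 to -0.37, Anxa4 to -0.09, Anxa5 to -0.23, Anxa6 to 0.27 and Anxa7 to 0.02. No background correction moved Anxa7 to 0.17. Without single arrays Anxa9 ran from -0.92 to -0.18, S100a6 from -0.54 to -0.20 and Pla2g4b from -0.43 to -0.11. The mean of probes moved Anxa6 to 0.90, since it averages in the second Anxa6 probe, which was kept only through its CKO arrays. That value is therefore no support for a higher Anxa6. The second Anxa6 probe ran from 0.67 with no background correction to 1.69 with array weights, where its adjusted p was 0.105, and could not be tested without D, E or F because too few arrays measured it. The strict filter leaves out Anxa7 and Anxa8. The causes of the other shifts were not tested. Signal over background limits Anxa7, Anxa8 and the second Anxa6 probe.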
